A study of Mus musculus with 2 samples.

Results

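The open chromatin around 10 genes of epidermal growth factor (EGF) receptor signalling was described in mouse intestinal enteroids, out of 22367 protein-coding genes in the annotation. They are the receptor genes Egfr, Erbb2 and Erbb3, the ligand genes Egf, Areg, Ereg, Hbegf and Tgfa, and the regulators Lrig3 and Errfi1. The genes were chosen by role. For each gene, peaks within 1 kb of any annotated start site were taken as promoter peaks, and the other peaks in the gene body and the 50 kb on each side as distal peaks. Enteroids are epithelial cultures, grown here from crypts of the ileum. The donor mice were aged 4 months, on a C57Bl6/129sv background. Control enteroids were Taf4lox/lox and Taf4-inactivated enteroids were Taf4lox/lox::VilCreERT2. Floxed Taf4 alleles were thus present in both, and the Cre recombinase, driven by the epithelial Villin promoter and active after tamoxifen, in the latter alone. TAF4 is part of TFIID, which assembles the transcription machinery at promoters. Both cultures received 1 µM 4-hydroxytamoxifen for 3 days, so the drug is shared by the groups and the Cre is not. Open DNA was profiled with ATAC-seq, which relies on a transposase that cuts accessible sites, in 1 library per genotype. Every difference below therefore describes these 2 libraries, without a replicate check or a p-value between genotypes, and the genotype and the library cannot be told apart.

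EGF receptor family proteins are tyrosine kinases of the cell surface that pair when a ligand binds and then signal through the Ras and MAP kinase cascade. Their ligands are made as membrane proteins and released by proteases. In the intestine this signal drives the division of crypt cells and is restrained by inhibitors such as Lrig1 and Errfi1. EGF is a standard supplement of enteroid media.

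The sequences of 3 promoters are shown because they include the start site with a peak in the control list alone (Egf), the promoter with the widest rank difference (Erbb2) and a ligand promoter higher in rank after Taf4 inactivation (Areg). Each is given as the 250 bases before the annotated start site, from the NCBIM37 (mm9) assembly, and capitals mark matches to the patterns searched on both strands.
Areg promoter, chr5:91568391-91568640, plus strand: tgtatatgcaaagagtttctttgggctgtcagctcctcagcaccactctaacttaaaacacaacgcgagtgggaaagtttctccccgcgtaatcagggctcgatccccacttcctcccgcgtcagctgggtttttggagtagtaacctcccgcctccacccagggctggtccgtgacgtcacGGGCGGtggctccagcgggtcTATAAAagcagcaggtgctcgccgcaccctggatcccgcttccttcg
Egf promoter, chr3:129458241-129458490, minus strand: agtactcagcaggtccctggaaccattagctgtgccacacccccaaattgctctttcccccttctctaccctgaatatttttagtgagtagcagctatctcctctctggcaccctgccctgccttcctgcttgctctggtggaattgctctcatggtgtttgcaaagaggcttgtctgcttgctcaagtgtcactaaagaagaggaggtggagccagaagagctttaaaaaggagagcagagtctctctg
Erbb2 promoter, chr11:98273534-98273783, plus strand: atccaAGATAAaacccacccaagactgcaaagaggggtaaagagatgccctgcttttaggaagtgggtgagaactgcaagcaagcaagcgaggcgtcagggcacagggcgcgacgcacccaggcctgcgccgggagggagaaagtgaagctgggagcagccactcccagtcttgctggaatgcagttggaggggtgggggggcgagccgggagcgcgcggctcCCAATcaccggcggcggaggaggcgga

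The capitals in these promoters are the TATA box letters TATAAA, the Sp/KLF letters GGGCGG, the GATA factor letters AGATAA and the CCAAT box. The AP-1 letters TGANTCA and the HNF4 letters CAAAGTCCA were searched as well and were not found in these stretches. Over the 300 bases from 250 before to 50 after the start site, TATAAA occurred in 13.4% of coding promoters, GGGCGG in 44.0%, AGATAA in 10.3%, CCAAT in 37.9%, TGANTCA in 6.79% and CAAAGTCCA in 0.452%. In Areg the TATAAA match began at position −47. No pattern was found at the Egf start site, which also held 0 CpG dinucleotides. The patterns do not overlap one another here, and a match is a description of the letters and not a bound site.

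The central 300 bases of 3 distal peaks of the Taf4-inactivated list are shown because they are the highest-fold distal peak near Areg, the highest-fold Areg peak without a partner in control, and the highest-fold distal peak of Egfr.
Upstream of Areg, in both lists, chr5:91539190-91539489, plus strand: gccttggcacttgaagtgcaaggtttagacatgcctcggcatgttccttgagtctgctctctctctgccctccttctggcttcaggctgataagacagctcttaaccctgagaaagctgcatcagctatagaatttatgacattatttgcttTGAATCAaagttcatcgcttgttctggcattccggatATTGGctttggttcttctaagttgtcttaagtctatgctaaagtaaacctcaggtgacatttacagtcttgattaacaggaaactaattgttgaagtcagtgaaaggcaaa
Upstream of Areg, Taf4-inactivated list alone, chr5:91552465-91552764, plus strand: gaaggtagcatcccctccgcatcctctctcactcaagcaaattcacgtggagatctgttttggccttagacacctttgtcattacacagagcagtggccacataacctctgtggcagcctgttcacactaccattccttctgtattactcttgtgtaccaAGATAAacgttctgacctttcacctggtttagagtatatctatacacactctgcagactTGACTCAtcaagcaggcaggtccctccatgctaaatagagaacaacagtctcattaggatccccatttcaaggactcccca
Egfr intron, in both lists, chr11:16700642-16700941, plus strand: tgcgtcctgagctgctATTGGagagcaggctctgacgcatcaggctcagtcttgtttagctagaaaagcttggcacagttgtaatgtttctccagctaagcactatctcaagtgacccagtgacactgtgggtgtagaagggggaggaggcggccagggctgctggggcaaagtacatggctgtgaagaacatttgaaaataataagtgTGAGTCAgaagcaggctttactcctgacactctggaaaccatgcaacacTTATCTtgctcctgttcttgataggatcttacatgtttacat

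Here the capitals mark the AP-1, GATA and CCAAT box letters or their reverse complements. The AP-1 match reads TGAATCA in the first stretch, TGACTCA in the second stretch and TGAGTCA in the third. TGANTCA occurred in 17 of the 73 central stretches of member distal peaks away from any start site in the Taf4-inactivated list (23.3%), against 14.2% of all 53780 such peaks of that list. In the control list it occurred in 16 of 77 (20.8%), against 10.4% of 70789. AGATAA occurred near members in 15.6% of the control and 16.4% of the Taf4-inactivated stretches, against 11.5% and 15.0% over all such peaks. For CCAAT the shares near members were 35.1% in control and 34.2% after inactivation, against 30.8% and 31.1%. In the same order, TATAAA had 11.7% and 17.8%, against 9.09% and 11.15%. GGGCGG had 10.4% and 9.6%, against 8.9% and 9.5%, and CAAAGTCCA 1.3% and 1.4%, against 0.84% and 1.7%. Many stretches of the lists come from shared peaks, so the lists are not separate observations.

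The control list held 90445 peaks and the Taf4-inactivated list 71282. The depth of the Taf4-inactivated library, estimated from the fold and p of its peaks, was 60.5% of that of control, but more of its peaks were strong, with 28.7% against 11.9% at a −log10 q of at least 5. Fold enrichment is relative to the background of its own library, so peaks were compared by percentile of fold within their list, where 100 is the highest. The promoter of the targeted gene Taf4a stood at percentile 74.7 in control and 58.7 after inactivation, which does not report whether the floxed exons were deleted. Of 13 epithelial markers, 12 had a promoter peak in control, where Krt20 lacked one, and 13 after inactivation. Of 10 markers of blood, endothelial, stromal and muscle cells, 6 and 5 had one, among them Col1a1, Col1a2, Pdgfra, Myh11 and Des in both lists. The blood cell genes Ptprc, Cd3e and Lyz2 had none in either. The part of depth or of other cells in the results below was not tested.

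Promoters of 9 of the 10 members were open in both lists, and Ereg was the exception. Over all coding genes, 68.4% had a promoter peak in control, 65.6% had one in the Taf4-inactivated list and 28.7% had none in either. With peaks of −log10 q of at least 5 alone, control had 5 members with a promoter peak (Egfr, Erbb2, Hbegf, Tgfa and Errfi1) and the Taf4-inactivated list 9, against 35.5% and 46.5% of coding genes. By fold, the 9 promoters ranked from percentile 57.5 to 96.8 in control, with a median of 89.2, and from 51.9 to 94.5 after inactivation, with a median of 86.1. The medians over all coding genes with a peak were 86.5 and 81.5. The difference in percentile, Taf4-inactivated minus control, had a median of −4.93 over the 9 members, with 3 higher and 6 lower. Egf, among the higher, was ranked by an internal start site, and its upstream start site had a peak in control alone. Over the 14014 coding genes with a promoter peak in both lists the median difference was −2.77, and the quartiles were −10.6 and 2.36. The sign of the members' median depended on the measure. It was −2.47 with peaks ranked by −log10 p, where the median over coding genes was −2.66. It was 0.012 with peaks ranked by width, and 0.043 as a log2 ratio of fold centred on coding promoters.

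**Figure D1:**
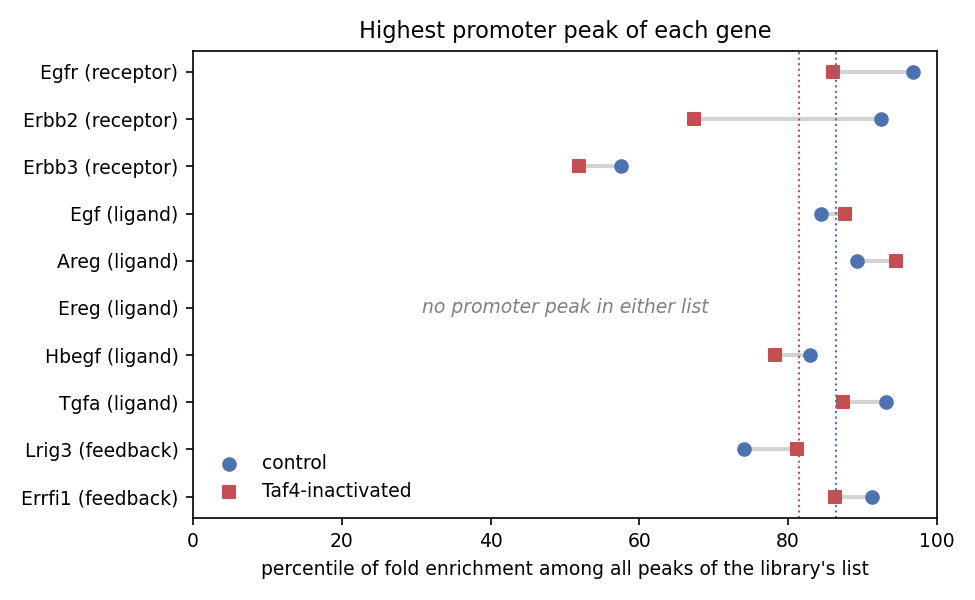
The horizontal axis gives the percentile of fold enrichment of the highest promoter peak of each gene within its library's list, with circles for control and squares for Taf4-inactivated enteroids. Dotted lines are the medians over coding genes, 86.5 in control and 81.5 after inactivation. Erbb2 has the widest gap, from 92.5 to 67.3, Areg, Egf and Lrig3 are higher after inactivation, and Ereg has no peak. The Egf value is that of an internal start site.

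All 3 receptor promoters ranked lower in the Taf4-inactivated list, by fold and by −log10 p, and Erbb2 did so by the most. By fold, the Erbb3 difference of −5.63 points lay within the quartiles over coding genes, −10.6 and 2.36. The Egfr difference of −10.7 was close to the lower quartile. Erbb2 (ENSMUSG00000062312.5, chr11:98273784-98299030, plus strand) encodes the receptor that has no ligand of its own and serves as the preferred partner of the others. Its promoter peak had a fold of 2.70 in control, at percentile 92.5, and 2.75 after inactivation, at percentile 67.3. The fold was thus almost the same in both libraries while that of most promoters was higher after inactivation, by a median of 0.34 on the log2 scale, and the Erbb2 difference of −25.2 points was the single member beyond 25 points. Of coding genes, 9.08% were lower by at least 25 points and 5.93% were higher by as much. The Erbb2 peak was also wider after inactivation, at 1193 bp against 729 bp, and ranked by −log10 p the difference was −16.6. A second Erbb2 start site, inside the gene, had a broad peak in both lists at percentile 52.4 and then 38.5.

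Egfr (ENSMUSG00000020122.9, chr11:16652206-16818161, plus strand), the receptor for EGF and Areg, had the highest-ranking promoter of the members in control. This peak spanned 1335 bp with a fold of 3.09 in control, at percentile 96.8, and 1167 bp with a fold of 3.43 after inactivation, at percentile 86.1. The Erbb3 promoter (ENSMUSG00000018166.8, chr10:128004579-128026708, minus strand) carried the widest peak of any member promoter, 3177 bp in control and 2992 bp after inactivation, but with the lowest fold of the members. Erbb3 encodes a neuregulin receptor with little kinase activity. Its percentile was 57.5 in control and 51.9 after inactivation.

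Among the 5 ligands, promoter ranks went both ways. Areg (ENSMUSG00000029378.4, chr5:91568641-91577458, plus strand) encodes amphiregulin. At its start site, shown above with TATAAA and GGGCGG, the peak had a fold of 2.54 in control, at percentile 89.2, and 4.10 after inactivation, at percentile 94.5, which made it the highest-ranking member promoter of that list. The peak narrowed from 872 to 533 bp. Tgfa (ENSMUSG00000029999.8, chr6:86145420-86225151, plus strand) encodes transforming growth factor alpha, and its promoter went from percentile 93.2 to 87.4, with folds of 2.75 and 3.51. Hbegf (ENSMUSG00000024486.5), the gene of heparin-binding EGF-like growth factor, went from 83.0 to 78.2, with folds of 2.35 and 3.07. The differences of Tgfa and Hbegf, −5.76 and −4.76 points, were lower by rank but had centred log2 ratios just above 0, of 0.010 and 0.043.

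Egf (ENSMUSG00000028017.2, chr3:129380493-129458240, minus strand) had open chromatin at an internal start site in both lists and at its upstream start site in control alone. The internal site, at position 129427999, had a peak of 336 bp and fold 2.39 in control and of 967 bp and fold 3.53 after inactivation, at percentiles 84.5 and 87.7. The peak at the upstream start site, the CpG-free sequence shown above, spanned 851 bp with a fold of 2.1 and a −log10 q of 1.98, and no peak overlapped it in the Taf4-inactivated list. The lowest −log10 q of the control list was 1.01, and the part of the lower depth of the other library in this absence was not tested. Ereg (ENSMUSG00000029377.4, chr5:91503643-91522675, plus strand) encodes epiregulin and had neither a promoter peak nor a distal peak inside the gene in either list.

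CpG content differed among these promoters in the 300-base window. The ratio of observed to expected CpG was 0 for Egf and 0.273 for Errfi1, and it was 1.11 for Lrig3, at percentile 97.5 of coding promoters, and 0.992 for Tgfa. Coding promoters were divided at the quartiles of this ratio. In the highest class, above 0.814, which includes Tgfa, Lrig3 and Hbegf, 97.4% of genes had a promoter peak in control and 97.1% after inactivation, and in the lowest, with Egf, 27.4% and 23%.

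The promoters of the 2 regulators differed in opposite directions by rank, but not by the centred log2 ratio, which was 0.044 for Errfi1 and 0.18 for Lrig3. Lrig3 (ENSMUSG00000020105.8, chr10:125403275-125452415, plus strand) encodes a leucine-rich repeat and immunoglobulin domain protein of a family that acts on receptor levels. Its peak went from percentile 74.1 to 81.3, with folds of 2.22 and 3.19, a difference of 7.14 points and the largest increase among the members. Errfi1 (ENSMUSG00000028967.4, chr4:150228028-150243001, plus strand), an inhibitor that binds the kinase domain of the EGF receptor, went from 91.2 to 86.3. Its peak, 2566 bp wide in control and 1769 bp after inactivation, also lay within 1 kb of a start site of 1700045H11Rik, so its value is shared with that gene.

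The windows of the 10 members held 93 different distal peaks in control and 90 after inactivation. The Areg promoter peak of each list lies in the Ereg window, so it counts among them and among the distal pairs below. Peaks touching a peak in the other genotype by 1 bp or more counted as shared, and the rest as having no partner. Of the control peaks, 36 had no partner (38.7%, exact Clopper-Pearson 95% interval 28.8 to 49.4, counting error only), and of the Taf4-inactivated peaks 33 had none (36.7%, 26.8 to 47.5). Over the windows of all coding genes, 52.0% of control and 39.3% of Taf4-inactivated distal peaks had no partner. With peaks of −log10 q of at least 2 alone, the members' shares were 24.1% and 37.1%, and those over all coding gene windows 40.6% and 43.4%. The peaks without a partner were narrower, at a median of 434 bp against 771 bp for shared peaks in control and 381 bp against 702 bp after inactivation. They also ranked lower, at median percentiles of 34.3 and 45.4 against 73.1 and 76.5. All 13 control peaks and all 16 Taf4-inactivated peaks above percentile 90 near members were shared. The same share over all coding gene windows was not computed, so no trait of the members can be read from it.

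**Figure D2:**
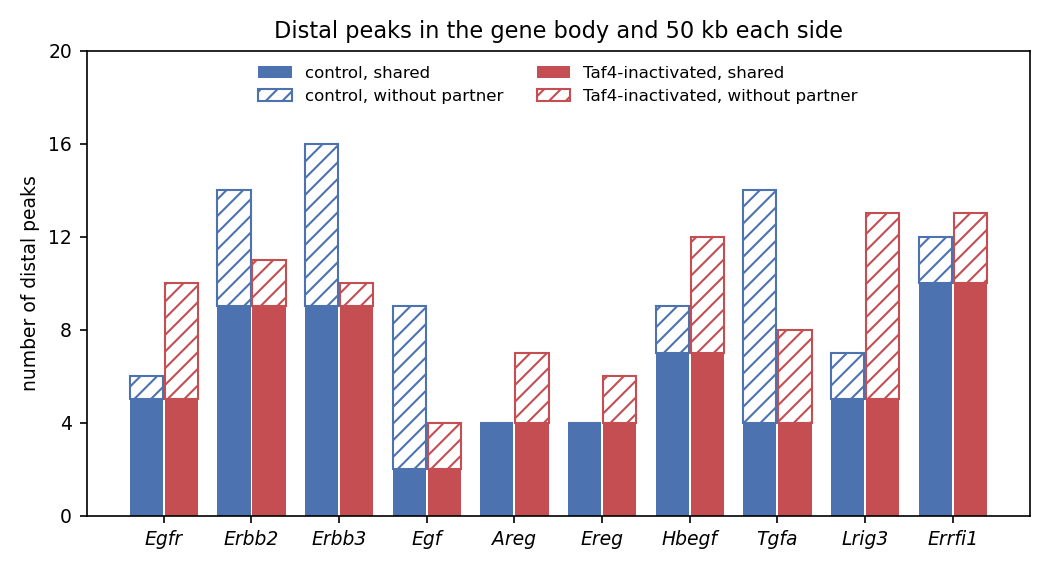
Bars give the number of distal peaks in the gene body and 50 kb on each side for each gene, in control and Taf4-inactivated enteroids, with filled parts for shared peaks and hatched parts for peaks without a partner. Erbb3 and Tgfa go from 16 to 10 and from 14 to 8 peaks, and Lrig3 and Egfr from 7 to 13 and from 6 to 10. The Areg and Ereg windows overlap and share peaks.

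Distal counts were lower after inactivation near 4 members and higher near the other 6. The 4 were Erbb2 (14 peaks in control and 11 after inactivation), Erbb3 (16 and 10), Egf (9 and 4) and Tgfa (14 and 8). Higher counts were found near Egfr (6 and 10), Areg (4 and 7), Ereg (4 and 6), Hbegf (9 and 12), Lrig3 (7 and 13) and Errfi1 (12 and 13). In the median coding gene window there were 8 peaks in control and 6 after inactivation. How many of all coding gene windows had a higher or lower count was not computed, so no trait of the members can be read from the split. With peaks of −log10 q of at least 2 alone, counts stayed lower near Erbb3, Egf and Tgfa. The differences, inactivated minus control, were −1, −1 and −3, and that of Erbb2 was 1. The lower counts did not hold at the stricter threshold of 5. With peaks of −log10 q of at least 5 alone, the Taf4-inactivated count was above the control count near Erbb2 (2 and 6), Erbb3 (3 and 8) and Tgfa (0 and 2), and Egf had 0 in both.

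At that threshold there were 15 control and 45 Taf4-inactivated distal peaks near members, and 8574 and 17187 near all coding genes. Each of the 15 had a partner among all Taf4-inactivated peaks, so the share without one was 0. That share was 1.05% over all coding gene windows. For the 0 of 15, counting error allows up to 20.0%. This is an approximate bound, 3 divided by the count, and not the exact interval used above. Of the 45, 8 had no partner in control (17.8%), against 11.8% over all coding gene windows. They lay near Lrig3 (3 peaks), Egfr (2), Areg (2, of which 1 is also in the Ereg window) and Hbegf (1). When the partner also had to reach a −log10 q of 5, the shares near members were 0 in control and 66.7% after inactivation, against 8.62% and 54.3%. Among the 8 peaks with no partner of any strength, the highest in rank was the Areg upstream peak shown above (chr5:91552469-91552760, fold 3.66, percentile 89.6). It was followed by peaks in an Lrig3 intron (chr10:125431923-125432423, fold 3.52, percentile 87.6), downstream of Hbegf (fold 3.46, percentile 86.6) and in an Egfr intron (chr11:16704043-16704494, fold 3.35, percentile 84.6).

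**Figure D3:**
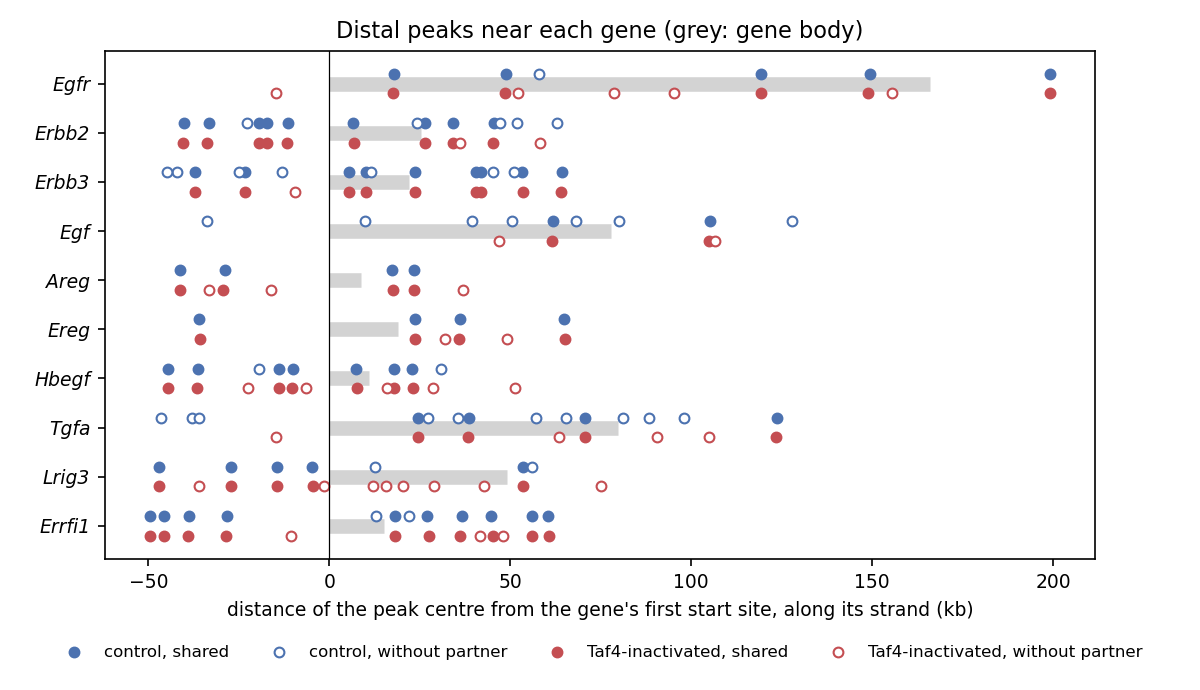
Each point is a distal peak at the distance of its centre from the first start site of its gene, in kb along the strand of the gene, with control above and Taf4-inactivated below the grey gene body. Filled points are shared peaks and open points have no partner. Open points in the control row are most frequent at Tgfa (10), Erbb3 (7) and Egf (7), and in the Taf4-inactivated row at Lrig3 (8), Egfr (5) and Hbegf (5).

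Shared distal peaks near the members more often ranked higher in the Taf4-inactivated list. This comparison of pairs was added after the data had been seen. Of 57 pairs, each peak being the best overlap of the other, 40 were higher and 17 lower, with a median difference of 5.32 percentile points. By the log2 ratio of fold, centred on all pairs away from start sites, 46 of the 57 were higher, with a median of 0.22. Away from the start site of any gene, 33 of 42 pairs were higher (78.6%), with a median of 10.3. Over all 26898 pairs away from start sites, 43.0% were higher and the median was −2.92. A difference of at least 25 points upward was seen in 10 of the 42 member pairs, and in 12.2% of all pairs. Downward it was seen in 2 of the 42, and in 19.1% of all pairs. Pairs of 1 window come from the same stretch of chromatin and are not independent of each other.

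**Figure D4:**
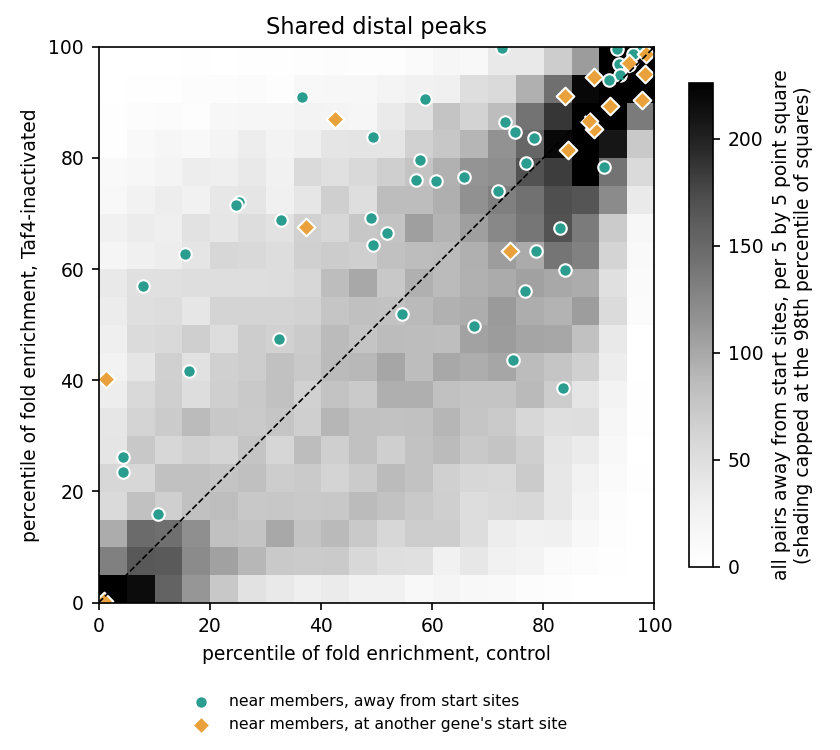
Axes give the percentile of fold enrichment of both peaks of a pair, in control (horizontal) and Taf4-inactivated enteroids (vertical). Grey squares count all 26898 pairs away from start sites, circles are the 42 member pairs away from start sites and diamonds those at the start site of another gene. Circles lie above the dashed line of equal rank in 33 of 42 cases.

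Near Erbb2, the distal pairs and the promoter went in opposite directions. Of 9 distal pairs, 7 were higher after inactivation, by a median of 30.3 points over the 9, although the window is dense in genes and 5 of its peaks in each list lay at other start sites. The widest difference of an Erbb2 pair was 46.7 points, 4157 bp from the nearest Grb7 start site, where the peak at chr11:98318675-98319845 stood at percentile 25.3 in control and its partner at 72 after inactivation. Upstream, near Pgap3, a pair went from 58.7 to 90.7. The highest distal peak was at the start site of 1810046J19Rik in both lists, at percentile 95.5 and 97.1. The intronic peak of Erbb2 itself was one of the 2 lower pairs, going from 83.1 to 67.5. The highest Erbb2 peaks without a partner were both downstream and weak, at percentile 29.1 in control and 22 after inactivation.

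Egfr had its highest intronic peak 48.7 kb past the start site in control, at chr11:16700210-16701630 with a fold of 3.24 and percentile 97.8. The partner after inactivation, shown above with TGAGTCA, was narrower (596 bp against 1421 bp) and had a fold of 5.52 at percentile 99.6, the highest of the Egfr distal peaks in that list. In control the highest was at the start site of Fbxo48 downstream, at percentile 98.6, and its partner was at 98.8. Of 5 Egfr pairs 4 were higher, and the fifth, also in an intron, went from 74.6 to 43.6. Of the 5 Egfr peaks of the Taf4-inactivated list without a partner, 4 lay in introns, 1 of them at a start site of E230015J15Rik, and 1 lay upstream at percentile 47.3. The Egfr peak without a partner in control was intronic, at percentile 55.5.

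Erbb3 pairs were spread widely, from −44.9 to 54.5 points, with 5 of 9 higher. The largest was inside the gene, where an exonic peak of 263 bp (chr10:128016468-128016730) at percentile 36.6 in control paired with one of 413 bp at 91.0. The lowest was a peak 23.4 kb upstream, in control 2351 bp from the nearest Gm9182 start site, that went from 83.5 to 38.6. The highest distal peak in both lists was at the start site of Pa2g4, at 98.3 and 95.2. Of the 7 control peaks without a partner, the highest in fold was a 200 bp peak 13.1 kb upstream of Erbb3 at percentile 65.5. The Taf4-inactivated one, also upstream, was at percentile 74.2.

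The stretch from 50 kb before Ereg to 50 kb after Areg (chr5:91453643-91627458) held 6 peaks in control, the Areg promoter included, and each of the 6 had a partner that ranked higher after inactivation. The differences ran from 1.29 to 27.1 points with a median of 5.84. The widest was at the peak shown above, 29.3 kb upstream of Areg, which went from percentile 72.6 (fold 2.20, 1169 bp) to 99.7 (fold 5.6, 561 bp). Downstream of Areg, a peak 23.4 kb from the start site went from 93.3 to 99.7 and another, 17.2 kb away in control, from 73.1 to 86.4. Between Ereg and Areg a peak 41.2 kb before Areg went from 95.4 to 96.7, and a peak 35.9 kb before Ereg, in the control list, from 96.2 to 98.7. Ranked by −log10 p, 5 of the 6 pairs were higher. A further 3 peaks were in the Taf4-inactivated list alone, at percentiles 45.4, 89.6 and 83.1. No control peak of the stretch lacked a partner.

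Btc, the gene of the ligand betacellulin, lies farther along the same chromosome and was set beside this stretch after its values had been seen. Its window, with 50 kb on each side, held 7 peaks in control and 9 after inactivation, and all 5 pairs were lower after inactivation, by fold and by −log10 p alike. They ran from −38.9 to −5.38 points. The Btc promoter was among them and went from percentile 96.5 to 91.1. A further 2 control peaks and 4 Taf4-inactivated peaks of the window had no partner, the latter at percentiles up to 93.0. Epgn, the gene of epigen at the other end of the cluster, had no promoter peak in either list, and both of its distal pairs, of which 1 is the peak upstream of Ereg, were higher.

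**Figure D5:**
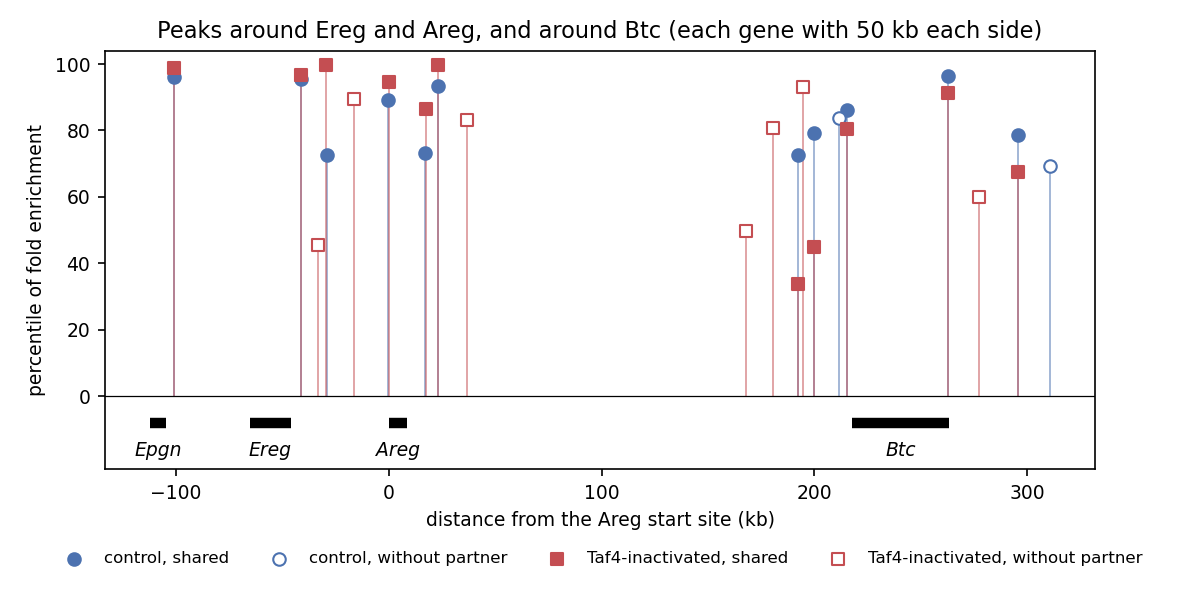
The horizontal axis is the distance from the Areg start site in kb and the vertical axis the percentile of fold enrichment, with circles for control, squares for Taf4-inactivated enteroids, and open symbols for peaks without a partner. Black bars mark the genes, and only the windows of Ereg and Areg and of Btc are drawn. Squares stand above circles in all 6 pairs around Ereg and Areg and below them in all 5 pairs around Btc.

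Hbegf had 6 of 7 distal pairs higher after inactivation, with a median of 21.7 points. The largest, of 47.1 points, was 10027 bp upstream of Hbegf in control, and 2319 bp from the nearest Slc4a9 start site. It went from percentile 15.6 in control to 62.7 after inactivation. A peak of 1073 bp in an Hbegf intron in control went from 32.9 to 68.9. The lower pair was the strong peak at the start site of Ankhd1, at 97.8 and 90.4. The highest distal peak after inactivation was 36.5 kb upstream of Hbegf, at percentile 96.9. That peak lay 7690 bp from the nearest Ankhd1 start site, and its control partner was at 93.6. The higher of the 2 Hbegf control peaks without a partner was at percentile 18.1.

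Tgfa had the most control peaks without a partner, 10 of 14, of which the highest in rank was an intronic peak at percentile 72.1. It had 4 pairs, 3 of them higher. The largest was in an intron 24.5 kb past the start site, at chr6:86169459-86170342 in control, which went from percentile 24.7 to 71.6. The lower one, 124 kb past the start site of Tgfa, went from 83.9 to 59.9. After inactivation the highest Tgfa distal peak was an intronic one at percentile 74, and the highest without a partner, upstream, was at 70.9. No Tgfa distal peak in control reached a −log10 q of 5. Egf likewise had 7 of 9 control peaks without a partner, at percentiles up to 80.4, and its 2 pairs differed by 14.9 and −2.54 points. The highest Egf distal peak after inactivation was exonic, at percentile 52.0, and the highest without a partner intronic, at 42.1.

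Lrig3 had 8 peaks in the Taf4-inactivated list without a partner, the most of any member, and 5 of these lay within the gene. Its 5 pairs differed by −20.7 to 14.7 points, with 3 higher. The highest distal peak of Lrig3 in both lists was 27.1 kb upstream, at percentile 93.7 in control and 94.9 after inactivation. Its highest control peak without a partner was intronic, at percentile 36 (chr10:125415404-125416440). A Taf4-inactivated peak without a partner (chr10:125415105-125415381) ended just before it, so these peaks are neighbours that did not touch. Errfi1 had the most pairs, 10, of which 5 were higher and 5 lower, with a median of 1.36 points. The widest difference of Errfi1 was 49 points, at a broad control peak of 1912 bp downstream that ranked at percentile 8.04 and had a partner at 57.1. This control peak lay 3361 bp from the nearest Park7 start site. The highest distal peak of Errfi1, at the start sites of Park7 and Tnfrsf9, went from 92.0 to 89.3. The highest Errfi1 peaks without a partner were exonic in control, at percentile 72.5, and upstream after inactivation, at 31.1.

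The other genes of the pathway, a list of 37 chosen by role, had a promoter peak in 36 cases in each list, with Epgn the exception. Of the 36, 31 ranked lower and 5 higher after inactivation, with a median difference of −5.49 points against −2.77 over all coding genes. The quartiles over coding genes were −10.6 and 2.36. The share of all coding promoters that ranked lower was not computed, so the count of 31 has no such share beside it. Counted by the centred log2 ratio of fold, 23 were lower and 13 higher, and ranked by −log10 p, 32 and 4. The median difference by −log10 p was −4.00, against −2.66 over all coding genes. Beyond 25 points were 2 genes, both lower, or 2 of 36 against 9.08% of coding genes. They were Erbb4, the fourth receptor of the family, from percentile 75.4 to 39.2, and Rhbdf1, an inactive rhomboid that takes part in ligand shedding, from 32.9 to 5.90. The neuregulin genes were at 75.1 and 73.0 (Nrg1) and at 95.2 and 88.7 (Nrg4).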

How the data were processed

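The broad peak lists of both ATAC-seq libraries were used, and the labelled genotype gave the groups. Per the methods and processing notes, the authors mapped unique reads to mm9 with Bowtie 1.0.0 and called broad peaks per library with MACS2 2.1.1, extending reads to 200 bp. How duplicate and mitochondrial reads were treated is not given in the sources used here. The deposited score is 10 times the −log10 q, the deposited fold is a ratio to the background of the same library, and the deposited −log10 p and −log10 q are means over a peak. The score was not used in any result.

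All peak ends lay within the NCBIM37 chromosomes, and genes came from GENCODE of that build. Positions were made 1-based. Peaks were ranked by percentile of fold within a list, and pairs were mutual best overlaps. Depth was estimated by solving fold and Poisson p of each peak for the local background and taking percentile 5 among the narrowest 10% of peaks. No read counts were used here. These steps were tested on simulated data. Python 3.11.15, numpy 2.4.6, pandas 2.3.3, scipy 1.17.1 and matplotlib 3.10.9 were used.

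The members, gene lists, markers and patterns were chosen with earlier results of these data known. Named were all 10 members with their highest promoter peak, highest distal peak and highest distal peak without a partner in each list, the ErbB family genes of the wider list and those beyond 25 points, and Taf4a. Other peaks named were chosen after their values were seen, as were the pair and Btc comparisons. Alternatives changed the q threshold, list size, promoter distance, window, overlap, joining of peaks and ranking measure. A marker gene and a promoter sequence are not reported here. 1 library per genotype allows no p-value between genotypes.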

Additional observations from a re-analysis of the deposited data

How the results depend on the processing

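No paired analysis was possible because each genotype had a single library, and none could be left out for the same reason. Of 97 alternative values, 9 changed sign. Another 39 stayed within a tolerance, which was 1.5 times for counts, the 95% interval for shares and no change at all for differences, and 49 moved past it. The 9 members with a promoter peak stayed at 9 in both lists except with a −log10 q of at least 5, where control had 5. The members' median promoter rank difference of −4.93 was −4.76 with a promoter distance of 5 kb, −2.47 ranked by −log10 p, 0.012 ranked by width and 0.043 as a centred log2 ratio, and among single members that ratio reversed the sign of Hbegf (0.043), Tgfa (0.010) and Errfi1 (0.044). Distal peaks near members, 93 in control and 90 after inactivation, numbered 58 and 70 at a −log10 q of at least 2, 15 and 45 at 5, 47 and 66 among the 40000 peaks of highest fold, 40 and 37 with 10 kb around the genes and 152 and 139 with 100 kb. The shares without a partner, 38.7% and 36.7%, were 24.1% and 37.1% at a −log10 q of at least 2, 0% and 66.7% at 5 in both lists, 25.5% and 47.0% among the 40000 peaks, 55.9% and 54.4% with an overlap of 50% of both peaks, and 0% and 17.8% for peaks of a −log10 q of at least 5 looked for among all peaks. Thresholds apply to each library at its own depth, and under each of them the control count and share were below those after inactivation. The difference in distal peak count, inactivated minus control, was −3 for Erbb2, 1 at a −log10 q of at least 2 and 4 at 5. At the same settings it was −6, −1 and 5 for Erbb3 and −6, −3 and 2 for Tgfa. For Egf it was −5, −1 and 0. The median difference of the distal pairs, 5.32 points, was 3.44 by −log10 p, 5.74 by width, 2.51 over 41 pairs with an overlap of 50% and 0.22 as a centred log2 ratio. Higher were 41 of 57 pairs by −log10 p, 37 of 57 by width and 25 of the 41 with that overlap. Values over all pairs were not computed for these 3 settings. This pair comparison with its 4 alternatives, and the other measures of the wider list, were added after seeing the data. The causes of these shifts were not tested. Depth is known only as a ratio between the libraries, and peaks near the calling threshold carry no more than presence in a list.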
